A study of Mus musculus with 38 samples.

Results

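The mucosal pentraxins Mptx1 and Mptx2 and the inter-alpha-trypsin inhibitor heavy chain gene Itih2 were followed in intestinal epithelial cells of mice before and during dextran sodium sulfate (DSS) colitis. They are 3 of the 46078 genes in the count tables and were taken by name, as genes whose transcripts were seen to be lost between day 3 and day 7 of DSS. Their day 3 to day 7 differences therefore describe the choice and are given without a test. That description held for Mptx1 and Itih2. Mptx2 was close to undetected in every group, at 22 reads over all 38 libraries, so a loss of it could not be shown.

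All mice were C57BL/6 and carried a floxed Hk2 allele. In the group called KO (Hk2dIEC in the labels) Cre recombinase under the Villin promoter, which is active in epithelial cells of the intestine, deleted Hk2, the gene of the glycolytic enzyme hexokinase 2, while the WT group were floxed littermates without deletion. Males 10 to 12 weeks old received 1.5% (w/v) DSS in the drinking water and were sampled on day 3 (WT n = 7, KO n = 8) or day 7 (WT n = 7, KO n = 7), with both genotypes housed together. Untreated mice formed day 0 (WT n = 4, KO n = 5), and the labels do not say whether these came from the basal cohort of 9 to 11 weeks or from that of 86 to 92 weeks. Each library is 1 animal, named here by its label (d3_KO_350 is a KO animal of day 3). The series text speaks of colon tissue and the sample labels of intestinal epithelial cells.

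Pentraxins are secreted proteins that assemble into rings of identical subunits and bind bacterial surfaces and damaged cells in the presence of calcium. C-reactive protein (Crp) and serum amyloid P (Apcs) are the liver-made members found in plasma, whereas mucosal pentraxins are made by cells of the gut lining, Mptx1 in secretory cells of the large and small intestine and Mptx2 chiefly in Paneth cells, the antimicrobial cells of small intestinal crypts. Itih2 encodes heavy chain 2 of the inter-alpha-inhibitor complex, which is best known as a plasma protein from the liver. The heavy chains are passed to hyaluronan, the long sugar polymer of the extracellular matrix, by the enzyme TSG-6 (Tnfaip6), and so stabilise the matrix around inflamed tissue, while the light chain bikunin (Ambp) inhibits proteases.

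In the files Mptx1 (ENSMUSG00000026531) lies on the plus strand of chromosome 1 at 174330518 to 174332873, with 799 counted bases. Mptx2 (ENSMUSG00000079180) lies on the minus strand of the same chromosome at 173274382 to 173277777, with 794 counted bases. Itih2 (ENSMUSG00000037254) lies on the minus strand of chromosome 2 at 10094593 to 10131396, with 3315 counted bases. The build is GRCm38, all 3 genes are protein coding in GENCODE release M21, and none overlaps another gene of the files. The mucosal pentraxins are close copies, and since their counts differ by more than 4 orders of size, their sequences are shown to let a reader see how far reads and promoters can be told apart. The bases directly upstream of each start, from RefSeq on GRCm38.p6, are printed 5′ to 3′ on the strand of the gene, with capitals for bases that differ between the genes or have no partner. They cover chr1:174330283-174330517 (plus strand) for Mptx1 and chr1:173277778-173278006 (minus strand) for Mptx2, each ending 1 base before the gene's first base in the files.
Mptx1 upstream: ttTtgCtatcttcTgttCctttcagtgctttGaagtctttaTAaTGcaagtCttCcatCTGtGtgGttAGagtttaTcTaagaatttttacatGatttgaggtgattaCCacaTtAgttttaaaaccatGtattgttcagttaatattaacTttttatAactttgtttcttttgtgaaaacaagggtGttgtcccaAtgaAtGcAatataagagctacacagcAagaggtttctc
Mptx2 upstream: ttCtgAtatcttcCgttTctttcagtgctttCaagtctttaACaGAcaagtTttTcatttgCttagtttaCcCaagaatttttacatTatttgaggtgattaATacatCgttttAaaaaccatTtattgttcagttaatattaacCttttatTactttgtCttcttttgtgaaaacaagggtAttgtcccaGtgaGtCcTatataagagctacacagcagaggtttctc
Of 227 aligned base pairs, 201 were identical (88.5%). The longest identical run was 21 bases, tattgttcagttaatattaac, at 105 to 85 bases before the start in both genes. It holds the 12-letter word GTTAATATTAAC, which reads the same on both strands and joins GTTAAT, the core of the site bound by the intestinal and hepatic factors of the HNF1 family, to its complement. This word was picked after the sequences were seen, from the run they share, so its matches in these 2 promoters were fixed by the choice. It was found in the 250 bases before the start in 2 of 32851 RefSeq promoters (0.00609%), those of Mptx1 and Mptx2. The shorter GTTAAT on either strand occurred in 6.43% of promoters. The spaced word GTTAATNATTAAC occurred in 0.00913%, with no match in either pentraxin. Shares of words of unlike length cannot be compared, and nothing is read from them. TATAA on either strand, found in 22.8% of promoters, began 29 bases before the start of Mptx1 and 28 bases before that of Mptx2. Mptx1 held 4 further TATAA matches in overlapping pairs. The GTTAAT matches of both pentraxins lie inside the 12-letter word. No match to any of these 4 words was found in the 250 bases before Itih2.

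The transcripts of the pentraxins differ enough for most reads to be placed. Over their length, 92.9% of the aligned bases of Mptx1-201 and Mptx2-201 (GENCODE M21) were identical, as were 92.6% in the coding sequence. The first 112 bases were the same in both. Of the 745 windows of 50 bases (the read length) in Mptx2, 134 also occurred in Mptx1, and reads that fall in these could belong to either gene. A coding stretch, bases 236 to 355 of each transcript, shows the spacing of the differences, with the 16 differing bases in capitals.
Mptx1 coding: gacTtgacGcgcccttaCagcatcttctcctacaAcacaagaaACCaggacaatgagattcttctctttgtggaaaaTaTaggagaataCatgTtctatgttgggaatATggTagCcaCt
Mptx2 coding: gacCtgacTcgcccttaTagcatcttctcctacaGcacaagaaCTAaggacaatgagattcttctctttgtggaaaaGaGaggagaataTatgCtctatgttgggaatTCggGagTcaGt

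Total counts ranged from 10.5 to 60.6 M per library, and the level worth 3 counts, taken as the limit of detection in a library, was 0.0495 to 0.286 CPM (counts per M counts of the library). Levels below are TMM-scaled CPM as mean ± SD over animals. Hk2, the targeted gene, was at 337 ± 89.4 CPM in WT and 71.8 ± 29.7 CPM in KO on day 0 (n = 4 and 5). On day 3 it stood at 440 CPM in the library labelled d3_KO_345, above all 7 WT libraries although the label says KO. The other KO libraries of that day held 70.9 to 131 CPM, so results of KO day 3 are also given without d3_KO_345. That library also had the highest sums of KO day 3 for 8 neutrophil genes (164 CPM, median 41.4 CPM) and 10 other immune genes (99.0 CPM, median 51.8 CPM). The part of immune cells in its Hk2 level was not tested. In d0_KO_32, mitochondrial ribosomal RNA took 45.6% of counts, against 6.25% to 13.8% in the other day 0 libraries. Epithelial origin was checked with a list of 7 pan-epithelial genes, whose summed level was 8256 to 17984 CPM over all libraries. In RNA from many cells, fewer cells of a type and less RNA per cell cannot be told apart. Day 0 files carry another library prefix than those of days 3 and 7, so day 0 and library series cannot be told apart either. Mitochondrial ribosomal RNA took 6.25% to 45.6% of counts on day 0, against 0.352% to 3.95% on days 3 and 7. Histone genes took 0.266% to 0.413% on day 0, against 0.0120% to 0.0541% on days 3 and 7.

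Mptx1 was among the most abundant transcripts in most libraries of days 0 and 3 and far lower on day 7. On day 0 its level was 1129, 624.7, 782 and 658 CPM in the 4 WT libraries and 1367, 12.0, 452, 4254 and 260 CPM in the 5 KO libraries, in the order of their animal numbers. The WT animals lay within 1.81-fold of each other, while the KO animals spread over 355.6-fold. On day 3 it ran from 167 over a median of 939 to 1915 CPM in WT, and from 280 over a median of 790 to 5610 CPM in KO. Ranked per kb of counted length, Mptx1 stood at place 4 of all genes in d3_KO_350 and at places 22 to 32 in the day 0 WT libraries, while its lowest places on these days were 273 in d3_WT_381 and 2977 in d0_KO_32. In d3_KO_350 it made up 0.570% of all counts (95% Wilson interval 0.568% to 0.573%, counting error only). On day 7 it ran from 0.465 over a median of 1.30 to 92.5 CPM in WT and from 0.622 over a median of 2.60 to 18.8 CPM in KO, at places 467 to 12402.

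**Figure D1:**
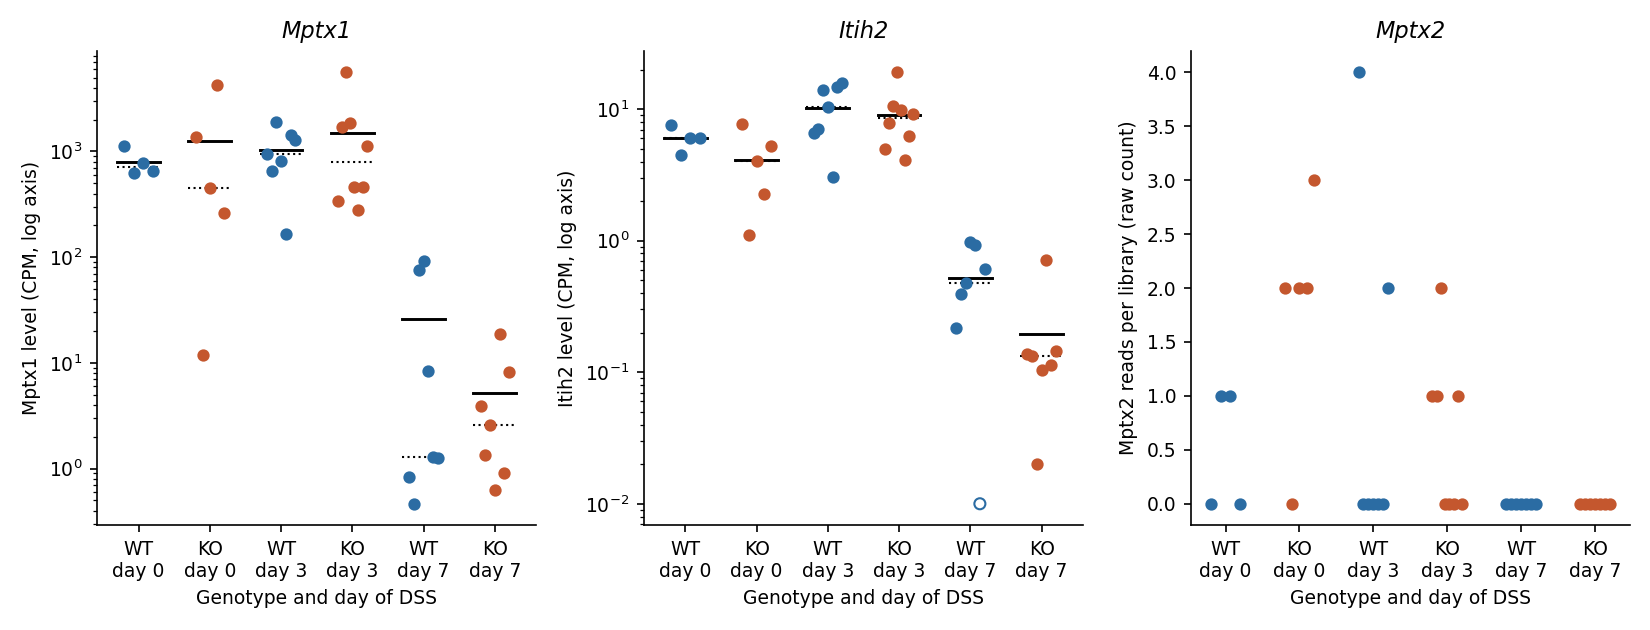
Level of Mptx1 (left) and Itih2 (middle) in CPM on log axes, and raw reads of Mptx2 (right, linear axis), with 1 point per library, blue for WT and orange for KO; solid lines are group means, dotted lines medians, and the open circle at the bottom of the middle panel is a library with 0 reads of Itih2. The left and middle panels show every day 3 library above every day 7 library, and the right panel shows 0 reads of Mptx2 in all 14 libraries of day 7.

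The 7 WT animals of day 7 did not form 1 cloud for Mptx1. Levels of 75.6 and 92.5 CPM were found in d7_WT_370 and d7_WT_386, 8.42 CPM in d7_WT_393, and 0.465 to 1.30 CPM in the other 4. The mean of 25.8 ± 40.2 CPM (SD, n = 7) thus rests on 2 animals. In KO on day 7 the mean was 5.21 ± 6.53 CPM (n = 7), with 18.8 CPM in d7_KO_421 and at most 8.28 CPM in the other 6. These residual levels are not at the limit of counting, since even the lowest library of each group had 24 or more reads of Mptx1.

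Libraries at the ends of the Mptx1 range also differed from their group in other genes. The highest levels on day 0 and day 3, in d0_KO_54 and d3_KO_350, came with the highest levels of Ang4, an antimicrobial ribonuclease of secretory cells. It stood there at 654 and 484 CPM, against means of 34.2 CPM in WT on both days. The other KO libraries had 4.43 to 141 CPM on day 0 and 12.2 to 295 CPM on day 3. The library with the second highest Mptx1 of KO day 3, d3_KO_351, had only 20.4 CPM of Ang4. In d0_KO_54 and d3_KO_350, Ang4 drove a list of Paneth cell genes to its highest sums (689 and 508 CPM). The 5 alpha-defensins of that list found in the files, which define Paneth cells, had at most 10 reads in any library. The lowest level of day 0, in d0_KO_32, came with the high ribosomal share given above and with the lowest sum of 12 goblet cell genes in its group (8400 CPM, median 29286 CPM). The lowest level of day 3, in d3_WT_381, came with the highest sum of 12 small intestine enterocyte genes (1471 CPM, WT day 3 median 465.9 CPM), of which Fabp2 made up 1159 CPM. That library also had the highest surface colonocyte sum of WT day 3 (19473 CPM, median 9725 CPM), the lowest sum of 7 crypt genes (223 CPM, median 400.3 CPM) and a mitochondrial ribosomal share of 3.95%, against 0.352% to 1.67% in the other day 3 libraries. The part of these differences in the Mptx1 values was not tested.

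Itih2 was a transcript of low abundance with the same order of days. On day 0 it measured 7.58, 4.51, 6.02 and 6.04 CPM in WT and 7.77, 1.11, 4.06, 2.28 and 5.30 CPM in KO, again in the order of animal numbers. The day 3 values ran from 3.05 over a median of 10.3 to 15.8 CPM in WT and from 4.13 over 8.51 to 19.1 CPM in KO. On day 7 they ran from 0 over 0.481 to 0.985 CPM in WT and from 0.0202 over 0.133 to 0.710 CPM in KO. In reads, this is a median of 459 per library in WT on day 3 and 22 on day 7, and 310 and 7 in KO, so day 7 values of Itih2 carry a large counting error. The library with 0 reads, d7_WT_419, allows up to 0.0648 CPM (3 counts).

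Mptx2 had at most 4 reads in any library, and 26 of 38 libraries had none. The counts were 2 in WT day 0, 9 in KO day 0, 6 in WT day 3 and 5 in KO day 3, summed over each group. On day 7 there were 0 reads among 306 M counts in WT and 331 M in KO, which allows up to 0.00981 and 0.00906 CPM over the group (3 counts, counting error only). Mptx1 gathered 1026814 reads over the same libraries. Mptx2 passed the filter on low counts in no comparison and no fold change is given for it.

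Group means were ordered KO day 3, KO day 0, WT day 3, WT day 0, WT day 7 and KO day 7 for Mptx1, at 1480 ± 1781, 1269 ± 1746, 1028 ± 569, 798 ± 230.5, 25.8 ± 40.2 and 5.21 ± 6.53 CPM. For Itih2 the order was WT day 3, KO day 3, WT day 0, KO day 0, WT day 7 and KO day 7, at 10.2 ± 4.83, 9.00 ± 4.69, 6.04 ± 1.25, 4.10 ± 2.60, 0.518 ± 0.360 and 0.195 ± 0.231 CPM. In both genes the step from the day 0 group with the lowest mean to WT day 7 exceeded the larger SD of these neighbours, and their ranges did not overlap. The genes were chosen as lost by day 7, and the share of all genes with such a gap was not computed. Nothing is therefore read from this step. All other neighbours in the order overlapped and did not differ beyond their SD. For Mptx1 the day 0 group with the lowest median was KO, at 452 CPM against 720 CPM in WT. KO day 0 overlapped both day 7 groups for Mptx1 through d0_KO_32, at 12.0 CPM. The highest libraries of WT day 7 and KO day 7 held 92.5 and 18.8 CPM.

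Between day 3 and day 7 the mean level of Mptx1 was 39.9-fold lower in WT and 284-fold lower in KO. The ratio of medians was 725 in WT and 304 in KO, so which genotype had the larger ratio depends on whether means or medians are taken. The lowest day 3 library lay 1.80-fold above the highest day 7 library in WT and 14.9-fold above it in KO. For Itih2 the mean was 19.7-fold lower in WT and 46.2-fold lower in KO, with the lowest day 3 library 3.10-fold and 5.81-fold above the highest of day 7. Fitted log2 fold changes (edgeR, day 7 minus day 3) were -5.29 (SE 1.18) and -8.16 (SE 1.04) for Mptx1 in WT and KO and -4.34 (SE 0.55) and -5.58 (SE 0.53) for Itih2. Without the library labelled d3_KO_345 the KO values were -8.31 for Mptx1 and -5.67 for Itih2. As background, the day 7 libraries lay wholly below those of day 3 for 1.89% of 15541 tested genes in WT and 2.51% of 15568 in KO, and 8.7% and 8.83% were called lower at an adjusted p under 0.05. Mptx1 and Itih2 were chosen on this contrast, so nothing is read from their place in it. The difference of the day contrast between genotypes was not tested.

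Whether the genotypes differed in these genes was asked within each day, a comparison that the choice of genes did not use. Hk2 itself was called between them by edgeR on day 0 alone, and leaving out any of 6 of the 9 animals there ended the call. Its log2 fold change of KO over WT was -0.27 (adjusted p = 0.802 in edgeR) on day 3, or -0.74 (adjusted p = 0.770) without the library labelled d3_KO_345. On day 7 the log2 fold change of Hk2 was -1.25 (adjusted p = 0.291 in edgeR and 0.0119 in DESeq2). It then stood at 331 ± 122 CPM in WT and 139 ± 69.6 CPM in KO (n = 7 each), and d7_KO_420, at 260 CPM, lay above d7_WT_431, at 231 CPM. Neither Mptx1 nor Itih2 passed on any day (edgeR quasi-likelihood test, Benjamini-Hochberg adjustment over all genes), and neither had an unadjusted p under 0.05, against called shares of 0.0335% of genes on day 0, 0.00647% on day 3 and 0.00642% on day 7. For Mptx1 the log2 fold change of KO over WT was 0.70 (SE 0.99, adjusted p = 0.826) on day 0 and 0.53 (SE 0.61, adjusted p = 0.785) on day 3. These positive values each rested on 1 animal: without d0_KO_54 the day 0 value was -0.58, and without d3_KO_350 the day 3 value was -0.20. Without the library labelled d3_KO_345 the day 3 value was 0.68. For Itih2 the log2 fold changes were -0.49 (SE 0.39, adjusted p = 0.674) and -0.19 (SE 0.34, adjusted p = 0.873), and -0.09 on day 3 without d3_KO_345.

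Day 7 gave the largest differences between genotypes for both genes, with KO below WT. The log2 fold change was -2.34 for Mptx1 (SE 1.18, unadjusted p = 0.0648, adjusted p = 0.405 in edgeR) and -1.41 for Itih2 (SE 0.69, unadjusted p = 0.0582, adjusted p = 0.397 in edgeR). The ranges overlapped in both genes. For Mptx1 the medians had the opposite order to the means, 1.30 CPM in WT and 2.60 CPM in KO. Leaving out d7_WT_386 moved the Mptx1 value to -1.51, and leaving out d7_KO_421 moved that of Itih2 to -2.18. A missed threshold does not show that the genotypes were alike in these genes.

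**Figure D2:**
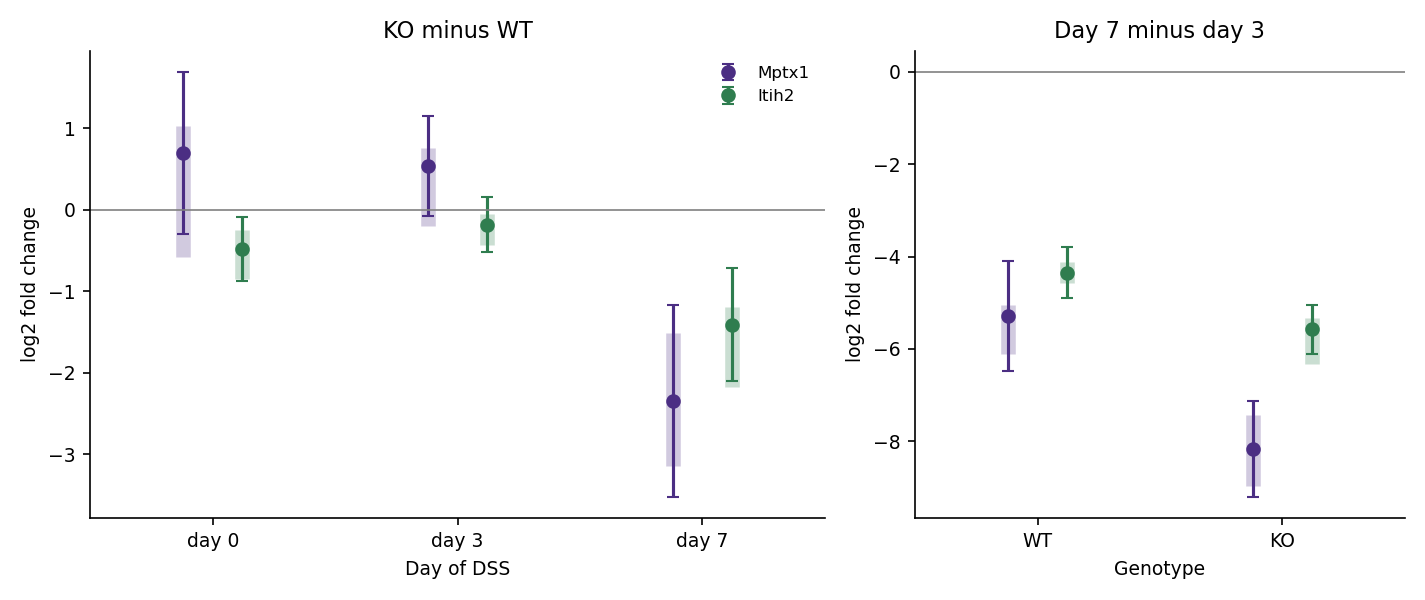
Fitted log2 fold changes of KO over WT on each day (left) and of day 7 over day 3 in each genotype (right), for Mptx1 (purple) and Itih2 (green); bars are ± SE and pale bands span the values with each animal left out in turn. The purple bands of days 0 and 3 cross 0, while all values at right lie below -4.

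Mptx1 and Itih2 varied together between days, and less uniformly between animals of 1 day. Across the 29 libraries of days 3 and 7, Pearson's r of their log2 CPM (prior count 2) was 0.93, and 0.59 once the 4 group means were subtracted (descriptions, since the day was used to choose the genes). Within WT day 3, r was 0.93 (n = 7, exact permutation p = 0.00556, adjusted over 12 relations 0.0667) and Spearman's rho 0.75 (adjusted exact p = 0.114), and r was 0.81 without the 2 animals farthest from the median. Within KO day 3, r was 0.69 and rho 0.81 (n = 8, adjusted exact p = 0.110 and 0.0714), and r was 0.66 without the 2 farthest animals. Within KO day 7, r was 0.63 and rho 0.79 (n = 7, adjusted exact p = 0.1997 and 0.0960). This last r rested on d7_KO_421, the highest library for both genes, since it was 0.08 without it. No pooled coefficient is given for Mptx1 in WT day 7, where the animals fell into separate clusters of fewer than 6. Its 2 relations there are counted among the 12 and did not pass (n = 7, adjusted exact permutation p of Pearson's r = 0.35608 for each).

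Per kb of counted length, Mptx1 stood 192 to 2187 times above Itih2 in the 15 libraries of day 3, most of all in d3_KO_350. On day 7 this ratio of levels ran from 4.90 to 652 in the 6 WT libraries with reads of Itih2 and from 24.9 to 535 in KO. The value of 535 was that of d7_KO_368 and rests on 1 read of Itih2. The pair therefore did not keep a fixed ratio, and d0_KO_54 had the widest gap at 7726.

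**Figure D3:**
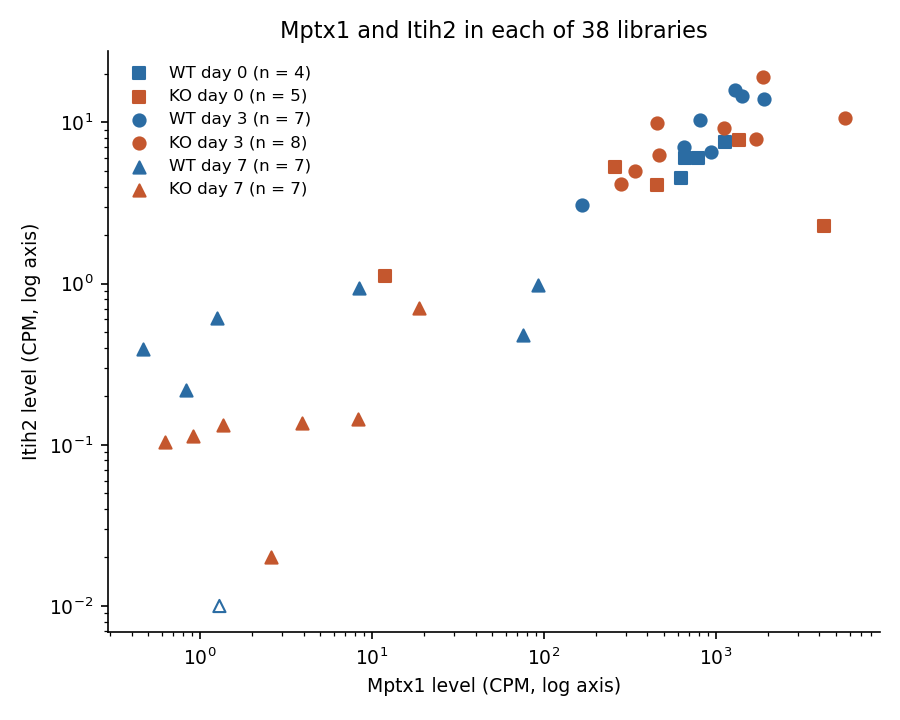
Level of Itih2 against level of Mptx1, both in CPM on log axes, with 1 point per library, coloured by genotype (blue WT, orange KO) and shaped by day; the open triangle is d7_WT_419 with 0 reads of Itih2. Libraries of day 7 lie at the lower left apart from those of day 3, and d0_KO_32 and d0_KO_54 leave the band of the other day 0 libraries at opposite ends of Mptx1.

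Genes most like the members were sought among 16369 others by Pearson's r of log2 CPM over the 29 libraries of days 3 and 7. The 5 most like Mptx1 were the unnamed transcript 5033404E19Rik (r = 0.97), the transmembrane serine protease gene Tmprss13, the secretory granule gene syncollin (Sycn), Mettl7a2 and the transporter gene Slc16a12. 5033404E19Rik averaged 7.51 CPM in WT day 3 and 0.144 CPM in WT day 7. Itih2 ranked 14th by this measure. For Itih2 they were Tmprss13 (r = 0.98), Sycn, the nuclear receptor gene Esrrg, the aspartic protease gene Ctse and the cytochrome P450 gene Cyp2f2. Sycn was by far the most abundant of these, at 341 CPM in WT day 3 and 37.7 CPM in WT day 7.

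With the 4 group means subtracted, so that only differences among animals of 1 group count, 5033404E19Rik (r = 0.83) and Tmprss13 (r = 0.75) remained among the 5 nearest to Mptx1, joined by Cd81, Vkorc1 and Bex4. For Itih2 the 5 were Cyp2f2 (r = 0.88), Tmprss13 (r = 0.87), Clic6, Esrrg and Ror1. Tmprss13 stood in all 4 sets of 5 genes. Itih2 then ranked 154th for Mptx1, and Mptx1 208th for Itih2. All values share the libraries and their scaling, and no test was made of them.

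Both genes were also set against a score of inflammation, the mean log2 CPM of 15 fixed inflammatory genes. The score ran from 0.62 to 4.02 on day 3 and from 4.38 to 7.63 on day 7, and the highest day 3 value was that of the library labelled d3_KO_345. Within KO day 3, animals with a higher score had less Mptx1, with Spearman's rho -0.93 (n = 8, exact permutation p = 0.00223, adjusted over 12 relations 0.0268). Pearson's r was -0.68 (adjusted exact p = 0.110), or -0.74 without the 2 farthest animals. Without d3_KO_345 rho was still -0.93, but with 7 animals the adjusted exact p was 0.0810. With each animal left out in turn the adjusted p was under 0.05 only without d3_KO_385. For Itih2 in KO day 3, r was -0.73 and rho -0.83 (n = 8, adjusted exact p = 0.110 and 0.0714), and r was -0.78 without the 2 farthest. Within WT day 3, r was 0.18 for Mptx1 and 0.09 for Itih2 (n = 7, adjusted exact p = 0.762 and 0.842), or 0.02 and 0.16 without the 2 farthest animals. The difference between genotypes in this relation was not tested.

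On day 7 the coefficients were negative without passing. In KO, r was -0.74 and rho -0.86 for Mptx1 (n = 7, adjusted exact p = 0.110 and 0.0714), and r was -0.54 without the 2 farthest animals. For Itih2 in KO, r was -0.25 and rho -0.79 (n = 7, adjusted exact p = 0.700 and 0.0960), with r -0.33 without the 2 farthest. In WT, r was -0.76 and rho -0.64 for Itih2 (n = 7, adjusted exact p = 0.110 and 0.208). That r was 0.06 without the 2 farthest animals, so it rests on them.

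**Figure D4:**
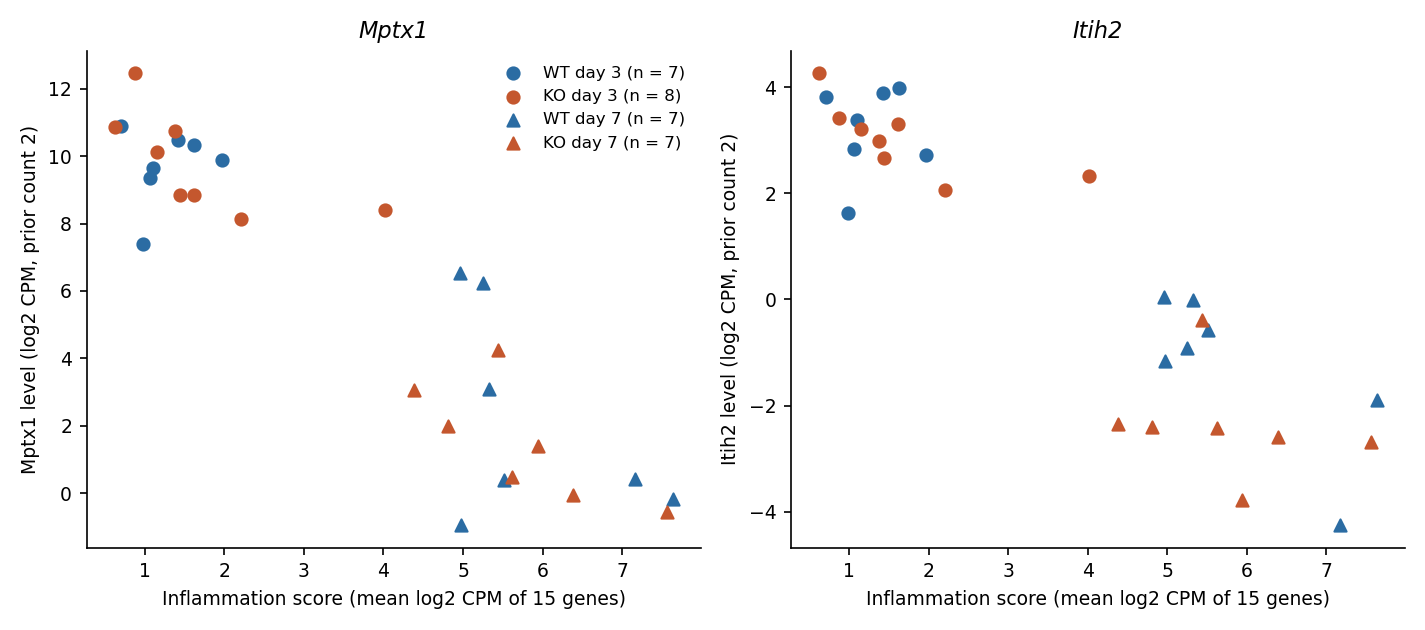
Log2 CPM (prior count 2) of Mptx1 (left) and Itih2 (right) against the inflammation score, in log2 CPM, for the 29 libraries of days 3 and 7, with 1 point per library (blue WT, orange KO, circles day 3, triangles day 7). The orange circles at left fall with the score (rho -0.93), and the lone orange circle near 4 is the library labelled d3_KO_345.

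No other pentraxin stood near Mptx1. Of 10 further genes of the family or with a pentraxin domain, Apcs had no read in any library and Crp and Ptx4 at most 1 read. Per kb, the long pentraxin Nptx2 averaged 0.386 CPM in WT day 3, against 1287 CPM for Mptx1. Of the 6 tested in the day contrast, none passed in WT and Nptx1, a neuronal pentraxin, fell by 0.86 on the log2 scale in KO (adjusted p = 0.0380 in edgeR; 0.838 ± 0.402 to 0.464 ± 0.122 CPM, n = 8 and 7). Of all tested genes, 19.3% were called in each genotype, 8.7% as lower in WT and 8.83% as lower in KO. The list's median log2 fold change was -0.63 in WT and -0.27 in KO, beside 0.01 and -0.01 over all tested genes. Nptx1 was no longer called without any single one of d3_KO_345, d3_KO_350, d3_KO_351, d3_KO_388, d7_KO_366, d7_KO_367, d7_KO_368, d7_KO_421 or d7_KO_423. In edgeR, 2 of the 6 in WT had an unadjusted p under 0.05, beside 5008 of all 15541 tested genes. DESeq2 called 1 pentraxin gene in WT, beside 3800 of all tested genes. Between genotypes edgeR called 0 of 3 tested on day 0 and 0 of 6 on days 3 and 7, with 0, 0 and 1 at an unadjusted p under 0.05, and DESeq2 called 0 on each day. Over all tested genes, edgeR gave such an unadjusted p to 1563 of 14944 on day 0. On day 3 these were 1218 of 15461, and on day 7 2017 of 15584.

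Among the genes of the inter-alpha-inhibitor and of hyaluronan, the heavy chain gene of this epithelium by abundance was Itih5, at 40.0 CPM per kb in WT day 3, where Itih2 stood at 3.08. Itih1, Itih3 and Itih4 had at most 3, 6 and 6 reads in any library. Itih5 fell from 316 ± 102 to 126 ± 28.04 CPM in WT (n = 7 and 7, log2 fold change -1.31, SE 0.20, adjusted p = 3.38e-04 in edgeR) and from 296 ± 53.6 to 104 ± 32.7 CPM in KO (n = 8 and 7, log2 fold change -1.50, SE 0.18, adjusted p = 4.27e-05 in edgeR). Cemip, whose product binds and breaks down hyaluronan, rose from 0.196 to 1.07 CPM in WT and from 0.186 to 1.20 CPM in KO (log2 fold changes 2.47 and 2.67, adjusted p = 0.00193 and 3.93e-04 in edgeR). These were the called genes of the list, 1 in each direction of 12 tested in WT and of 13 tested in KO, beside called shares of 19.3% of all genes in each genotype. The list's median log2 fold change was -0.15 in WT and 0.17 in KO. Between genotypes edgeR called 0 of its genes on each day. On days 0, 3 and 7, 3 of 10, 1 of 11 and 2 of 12 tested had an unadjusted p under 0.05. The counts over all tested genes are given above with the pentraxins. Ambp, the bikunin gene, was at 2.26 ± 0.73 CPM in WT day 3 and 2.09 ± 0.77 CPM in WT day 7 (adjusted p = 0.863 in edgeR). Tnfaip6 had log2 fold changes of 1.99 in WT and 0.84 in KO, with adjusted p of 0.132 and 0.598 in edgeR.

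**Figure D5:**
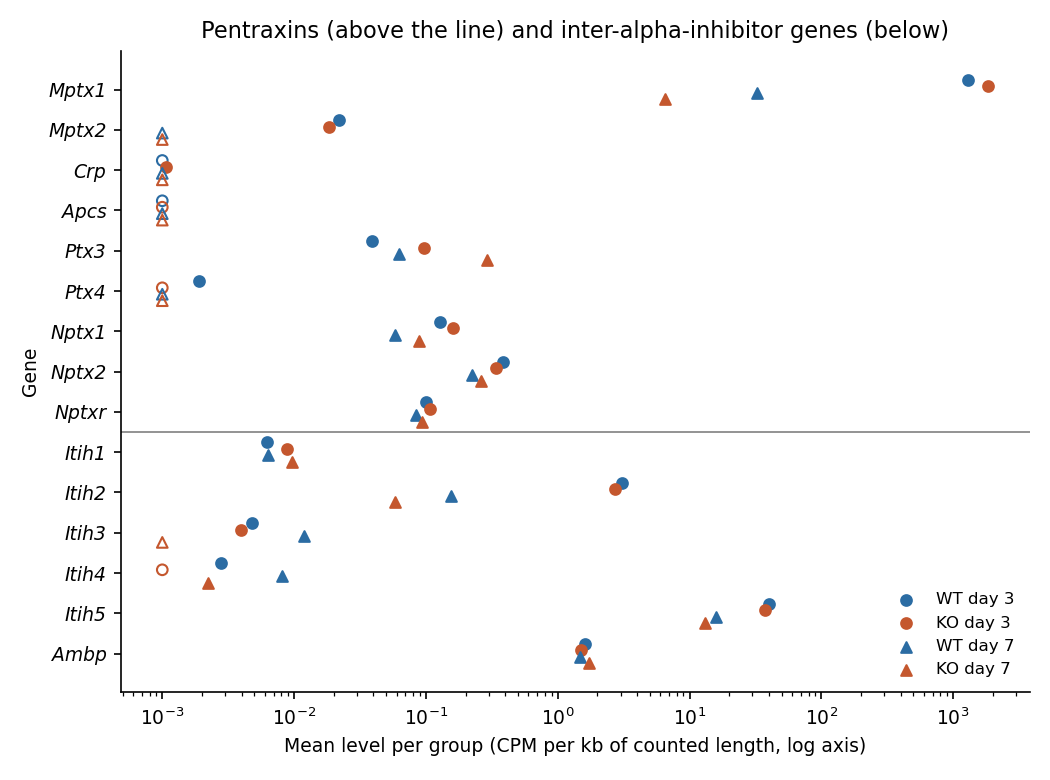
Mean level per group, in CPM per kb of counted length on a log axis, of pentraxin genes (above the line) and inter-alpha-inhibitor genes (below), in the 4 groups of days 3 and 7 (blue WT, orange KO, circles day 3, triangles day 7); open symbols at the left edge are means under 0.001. Mptx1 is the only pentraxin shown above 1 on day 3, and Itih5 lies above Itih2 in every group.

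Genes of the proteins that pentraxins engage mostly rose. Of 10 Fc receptor and complement genes, 6 rose and 1 fell of 9 tested in WT, and 8 rose and 1 fell of 10 in KO, with a median log2 fold change of 2.29 and 2.78, beside 10.6% and 10.5% of all tested genes called higher. The risers in both genotypes were the complement genes C1qa, C1qb and C1qc and the Fc gamma receptor genes Fcgr2b, Fcgr3 and Fcgr4, which are markers of macrophages and neutrophils. C1qb rose from 1.17 ± 0.39 to 7.64 ± 2.87 CPM in WT (n = 7 and 7) and Fcgr4 from 0.0695 to 3.61 CPM. The gene that fell was C4bp, of the soluble complement inhibitor C4b-binding protein, from 10.8 ± 2.81 to 4.46 ± 1.18 CPM in WT (log2 fold change -1.26, adjusted p = 3.93e-04 in edgeR). Summed levels of 8 neutrophil genes moved alongside, from 8.16 to 45.5 CPM on day 3 to 151 to 1090 CPM on day 7 in WT, and the part of immune cells in these values was not tested.

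Marker lists of cells that could carry the members were read beside their day contrast. The 12 goblet cell genes summed to 9682 to 16088 CPM in WT day 3 and 7691 to 12199 CPM in WT day 7. In KO they summed to 10368 to 21143 CPM (median 16246 CPM) on day 3 and 6757 to 11410 CPM (median 8030 CPM) on day 7. In WT 2 of the 12 were called lower and 1 higher, and in KO 6 were called lower, beside 8.7% lower and 10.6% higher of all tested genes in WT and 8.83% lower in KO. The list's median log2 fold change was -0.28 in WT and -0.56 in KO, and 5 and 11 of the 12 had an unadjusted p under 0.05 in edgeR. Of all tested genes, 5008 of 15541 in WT and 4770 of 15568 in KO had such a p. Muc2, the main goblet mucin, had log2 fold changes of -0.22 and -0.48 without passing (adjusted p = 0.391 and 0.149 in edgeR). Other genes of the list moved further between days 3 and 7. Clca1 averaged 1547 and 514 CPM in WT and 2816 and 445 CPM in KO. Fcgbp averaged 2408 and 1405 CPM in WT and 3824 and 1460 CPM in KO. Retnlb went the other way, at 60.6 and 301 CPM in WT and 119 and 245 CPM in KO. Of 6 tested crypt genes, Kit alone was called lower, by 0.74 in WT and 0.61 in KO on the log2 scale. In WT 5 of the 6 had an unadjusted p under 0.05 in edgeR and the list's median log2 fold change was -1.22. In KO these were 1 of 6 and -0.67. The medians of all tested genes, and their counts at an unadjusted p under 0.05, are those given above. The stem cell gene Lgr5 averaged 6.71 CPM in WT day 3 and 1.80 CPM in WT day 7 (log2 fold change -1.91, adjusted p = 0.0720 in edgeR), without passing. Of the Paneth cell list, 2 genes were called higher and 1 lower of 6 tested in WT. In KO these were 2 and 3 of 7. Of 10 surface colonocyte genes, 1 was called lower in WT and 3 in KO, and of 5 tuft cell genes 1 and 3, with 0 higher. Of 6 enteroendocrine genes, 0 were called. The small intestine enterocyte list had 3 of 10 called higher in WT and 1 in KO, with 0 lower. The 1 pancreas acinar gene tested was called lower in both genotypes. The part of these lists in the members' values was not tested. The pan-epithelial list summed to 10885 to 16750 CPM in WT day 3 and 11388 to 14787 CPM in WT day 7. Because Itih2 is best known from liver, 8 hepatocyte genes were checked as well. Their sum was 9.10 to 25.3 CPM in WT day 3 and 2.48 to 8.40 CPM in WT day 7. Most of it was Ttr, which is also made outside the liver, at 16.1 and 4.77 CPM. In KO the sum was 6.33 to 27.7 CPM on day 3 and 2.50 to 6.59 CPM on day 7. Of 3 tested genes, 2 were called lower in each genotype, with a median log2 fold change of -1.75 in WT and -1.83 in KO. Serpina1a and Fgg had at most 1 read in any library, and Fgb and Ahsg at most 3. Alb averaged 0.694 CPM in WT day 3 and 0.105 CPM in WT day 7. It had up to 82 reads, in d3_WT_487, the WT day 3 library with the most Itih2. The part of these genes in the Itih2 values was not tested.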

How the data were processed

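The values are counts of read pairs per gene and lane, unnormalised, which the authors made with featureCounts on paired reads without regard to strand, per the file headers. The headers give version 1.6.2, and the submitters' processing notes list featureCounts 1.5.2, Trim Galore, STAR and GRCm38. The annotation release is not given in the sources used here. No option for reads with several placements is set in the headers. The 2 lanes of each of the 38 libraries were summed. Groups were compared with the edgeR 4.0.16 quasi-likelihood test (TMM, filterByExpr, compared groups alone) under R 4.3.3, with calls at 0.05 after Benjamini-Hochberg adjustment. The fit recovered known changes in simulated counts. Relations across animals used exact two-sided permutation tests, adjusted over 12. Alternatives were DESeq2 1.42.0 (size factors or Wald test), other filters, 1 fit of all libraries, a small intestine covariate, lane 1 alone, a prior count of 0.5 and leaving out each animal. Named genes were the members, Hk2, the 5 most like genes per member, and called or most abundant list genes. The members and lists were chosen with earlier results of these data known. Animal numbers are not shared between groups, so libraries were treated as unpaired. Any shared litter or cage was not modelled.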

Additional observations from a re-analysis of the deposited data

Results flagged for a closer look

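In 6 of 18 sets of values (Mptx1, Itih2 and Hk2 in each of 6 groups), 1 library stood far from the rest, its gap to the nearest library taking up more of the group's range than Dixon's 95% limit. For normally distributed values chance flags about 1 set in 20. The CPM were not log-transformed here, and all 6 flagged libraries were the highest of their group. That rate therefore need not hold for these values.

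For Mptx1 in KO day 3 it was d3_KO_350 at 5610 CPM, with the next library at 1873 CPM, and the mean without it was 890 ± 673 CPM (n = 7). In KO day 7 it was d7_KO_421 at 18.8 CPM for Mptx1 and at 0.710 CPM for Itih2. The other 6 animals of that group averaged 2.95 ± 2.88 CPM of Mptx1 and 0.109 ± 0.0459 CPM of Itih2. For Itih2 in KO day 3 it was d3_KO_351 at 19.1 CPM, against 7.56 ± 2.51 CPM in the other 7. For Hk2 the libraries were that labelled d3_KO_345 at 440 CPM and d7_WT_356 at 598 CPM. The animal with the highest Mptx1 on day 3 in KO was thus not the one with the highest Itih2, whereas on day 7 it was.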

How the results depend on the processing

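No paired analysis was possible because the animal numbers of the labels are not shared between groups. The members' levels, day contrasts and uncalled genotype differences kept their direction under all alternatives except leaving out 1 animal: Mptx1, KO over WT, then ran from -0.58 to 1.02 on day 0 and from -0.20 to 0.76 on day 3 (log2). On day 7 it ran from -3.15 to -1.51, and Itih2 from -2.18 to -1.19. No alternative called either gene between genotypes, though DESeq2 gave no adjusted p for Itih2 on day 7 and Itih2 was below a mean CPM of 1 there. The count of all genes called between genotypes depended on the method. On day 0 it was 5, and 175 with the DESeq2 Wald test, 52 without a filter, 0 with the small intestine covariate and 0 to 37 with 1 animal left out. On day 3 it was 1, and 2 with DESeq2, 0 at a mean CPM of at least 1 and 0 to 1 with 1 animal left out. On day 7 it was 1, and 89 with DESeq2, 2 without a filter, 0 at a mean CPM of at least 1, 38 in the fit of all 38 libraries and 1 to 2 with 1 animal left out. In the day contrast, called pentraxin genes numbered 0 in WT, 1 with DESeq2 and in the fit of all libraries, and 0 to 1 with 1 animal left out. In KO they numbered 1, and 0 without a filter, at a mean CPM of at least 1 and in the fit of all libraries, and 0 to 1 with 1 animal left out. Called genes of the inter-alpha-inhibitor list numbered 2 in WT, 1 at a mean CPM of at least 1 and 2 to 3 with 1 animal left out. In KO they numbered 2, 1 at that filter, 4 in the fit of all libraries and 2 to 5 with 1 animal left out (5 without d3_KO_345), and DESeq2 called 1 such gene between genotypes on day 7. With 1 animal left out, the inflammation score in WT day 3 had r from -0.19 to 0.61 and rho from -0.086 to 0.77 with Mptx1, and r from -0.25 to 0.39 and rho from -0.029 to 0.66 with Itih2, 0 of which passed. In KO day 3, rho with the score ran from -0.93 to -0.89 for Mptx1 and from -0.96 to -0.75 for Itih2, and rho of Mptx1 with Itih2 from 0.71 to 0.93. In KO day 7, Mptx1 and Itih2 had r from 0.078 to 0.79 and rho from 0.66 to 1.00. The causes were not tested. Of Hk2, the day 0 difference between genotypes (adjusted p = 0.0331 in edgeR) was no longer called with 6 of 9 animals left out in turn (adjusted p up to 0.176) nor with the covariate (adjusted p = 0.107). Depth limits Itih2 on day 7, at a median of 22 reads in WT and 7 in KO, and Mptx2 throughout.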
